A study of Mus musculus with 36 samples.

Results

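Whole bladders of adrenalectomized mice given corticosterone (CORT) were compared with those of adrenalectomized mice given vehicle at the time label 8 h. The comparison rests on 6 of the 36 libraries of the series, 3 CORT and 3 vehicle, and on all 49585 features of the deposited gene tables. All animals were C57BL/6 mice after bilateral adrenalectomy, the removal of both adrenal glands, so the vehicle animals lack the main source of glucocorticoid and the CORT animals received the hormone back. Per the labels, CORT was given in the inactive phase of the day while the animals recovered. The sources used here give no dose, route, age or sex of the animals, nor what time zero stands for. Total RNA of the bladder was sequenced after removal of ribosomal RNA with a directional kit, in 6 time labels from 4 to 24 h with 3 replicates per group. The series title names the bladder's own clock and the daily rhythm of micturition as the subject. The 8 h comparison asks which transcripts differed between hormone-replaced and hormone-deprived bladders at a single time.

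The deposited values are gene-level read counts after quantile normalization by the authors, which gives every library the same set of values. They were put on 1 scale shared by both treatments and are called normalized values below. Where 3 values of a group follow each other they are replicates 1, 2 and 3, and an equal value in 2 libraries means an equal rank. The mean total count per library was between 9591304 and 12311336 by treatment and replicate number, and the 6 libraries at 8 h correlated with each other at 0.9794 to 0.9885 over genes. The markers of bladder were present: the 16 listed urothelial genes summed to 111303 to 123044 in CORT and 80857 to 104962 in vehicle, and the 10 smooth muscle genes to 318812 to 365283 in CORT and 298505 to 411930.1 in vehicle. The protocol text speaks of blood, and 8 erythroid and globin genes summed to 1538 to 2284 in CORT and 1479 to 2401 in vehicle. Markers of B and plasma cells summed to 121 to 180.4 in CORT and 115 to 471 in vehicle, and neutrophil and T cell markers to no more than 43.6 and 152.6 in any of the 6 libraries. Genes of seminal vesicle and prostate summed to at most 2.00 in each. The labels do not state whether each replicate is an animal of its own, so the p-values reflect only how far these samples vary, and part of that variation may be technical. In bulk tissue, fewer cells of a type and less RNA per cell cannot be told apart.

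Several of the 6 libraries stood apart or carried a doubtful name. The full tables and the authors' tables of selected genes disagree on replicate 2: the library called CORT 8 h replicate 2 in the full tables stands as CORT 20 h in the others (r = 0.9999), and that called vehicle 8 h replicate 2 stands as vehicle 20 h (r = 1.0000). In the other direction the names cross treatments. The selected-gene column named CORT 8 h replicate 2 matched vehicle 20 h replicate 2 of the full tables (r = 0.9998). That named vehicle 8 h replicate 2 matched CORT 20 h replicate 2 (r = 0.9999). Under both namings the 2 libraries used here thus have the same treatment and differ in time. For the libraries that carry the 8 h names among the selected genes, the disagreement covers treatment as well. The names of the full tables were used, and results are given also without both replicate 2 libraries at 8 h. In its clock genes the library labelled CORT 8 h replicate 2 lay farther from the vehicle 8 h mean than the other 5 libraries, as described below. The library labelled vehicle 8 h replicate 1 had a summed value of 3651.9 over 13 immediate early genes, against 10911.0 and 11651.2 in the other vehicle libraries. It also had the highest total of smooth muscle genes and a normalized value of 1105 for the adipocyte gene Cfd, with 21.9 and 0 in the other vehicle libraries. The 8 adipocyte genes summed to 4242.7, 1965.7 and 3730.7 in CORT, against 4844.1, 2231.6 and 2123.1 in vehicle. CORT replicates 1 and 3 thus also had high adipocyte totals.

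Glucocorticoids bind the glucocorticoid receptor, which enters the nucleus, activates some genes directly and dampens others, among them inflammatory genes and genes of connective tissue. Corticosterone is the main glucocorticoid of mice and its daily surge is one of the signals that set the clocks of peripheral organs. Long exposure is known to lower collagen synthesis in skin and other tissues, to slow cell division and to restrain interferon and cytokine genes. The clock itself runs on the activators CLOCK and BMAL1, the product of Arntl, and on their repressors of the Per, Cry and Nr1d families.

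At 8 h the CORT bladder had lower transcripts of fibrillar collagens and their companions, of endothelial and mitotic genes and of some interferon-responsive genes than the vehicle bladder. Of 17744 features tested, 114 fell (0.642%) and 22 rose (0.124%) at an adjusted p under 0.05 (limma). Together they were 136, or 0.766% of the features, and all 136 had groups that did not overlap, as did 23.8% of all features tested. With each treatment left on its own scale the count was 54 higher and 79 lower, so that 40.6% of the calls were higher in CORT, against 16.2% on the common scale. The median difference over all features was 0.05 on the log2 scale. Among the called features 71 passed a 2-fold difference, 64 of them lower and 7 higher, and the median absolute difference was 1.03.

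The number of calls depended on single libraries. Without both replicate 2 libraries at 8 h no feature was called by limma (2012 at an unadjusted p under 0.05), and the median absolute difference of the 136 was then 1.00. The pair of replicate 3 alone gave a median absolute difference of 0.951 over the 136. The 136 were selected with these same libraries, so the sizes of these medians are no independent test. Since the groups of all 136 did not overlap, leaving out libraries could not change their direction. Fits without a single library gave 2 higher and 9 lower calls without CORT replicate 1, 2 and 22 without CORT replicate 2, and 53 and 232 without CORT replicate 3. They gave 27 and 138 without vehicle replicate 1, 2 and 12 without vehicle replicate 2, and 1 and 4 without vehicle replicate 3. In the fits without both replicate 2 libraries, without CORT replicate 1 or without vehicle replicate 3, no member of any list described below was called. The only listed members called without CORT replicate 2 or without vehicle replicate 2 were 1 endothelial gene each.

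**Figure D1:**
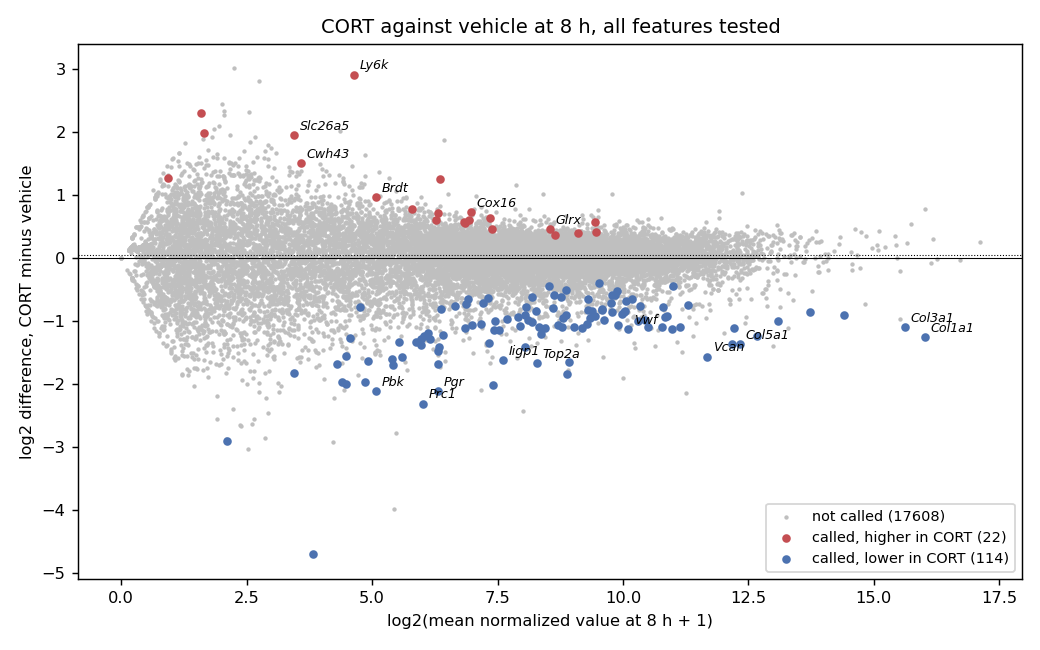
Difference between CORT and vehicle at 8 h (log2, vertical axis) against the mean normalized value of the 6 libraries (log2, horizontal axis) for the 17744 features tested. Red points are the 22 features called higher in CORT and blue points the 114 called lower. The solid line marks 0 and the dotted line the median of all features, 0.05. Called features with high values, such as Col1a1 and Col3a1, lie below the lines.

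Collagens and other matrix proteins are made mainly by fibroblasts and give the bladder wall its strength and stretch. Of 25 listed matrix genes, 11 fell, against 0.642% of all features tested, and none rose. All 25 had lower means in CORT, as did 42.9% of all features. In 21 all CORT values lay below all vehicle values, as they did in 11.1% of all features tested. The list median was -1.10 on the log2 scale, against 0.05 over all features and -0.41 for the same list at the other 5 times. Without both replicate 2 libraries at 8 h the median was -0.98. This list and those below were chosen with earlier results of these data known. Their counts set against all features are therefore no independent test.

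Col3a1, a fibrillar collagen of soft organs on chromosome 1 from 45311538 to 45349706 (mm10), had normalized values of 31784, 29389 and 34930.2 in CORT, against 57882, 74458 and 74458 in vehicle. Each CORT library held close to the same amount and each vehicle library more, without overlap. The difference was -1.10 ± 0.20 on the log2 scale (SE, n = 3 each; limma, adjusted p = 0.011), or 0.467 times the vehicle level. Col1a1, the main chain of type I collagen on chromosome 11 from 94936224 to 94953042, had 30385, 34930.2 and 52935 in CORT, against 69029, 105383 and 105383 in vehicle. The highest CORT library, replicate 3, remained below the lowest vehicle library, replicate 1, and the difference was -1.26 ± 0.30 on the log2 scale (SE, n = 3 each; limma, adjusted p = 0.0469). Col5a1, which helps to start and size collagen fibrils, had 2639, 2557 and 3439.6 in CORT, against 6701, 6903 and 8555 in vehicle, and the groups were far apart. Its difference was -1.36 ± 0.27 on the log2 scale (SE, n = 3 each; limma, adjusted p = 0.0154).

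Type VI collagen, which forms beaded filaments around cells, fell in both called chains. Col6a2 had 2984, 3682 and 5101 in CORT, against 7508, 8436 and 11646 in vehicle, a difference of -1.24 ± 0.24 on the log2 scale (SE, n = 3 each; limma, adjusted p = 0.0155). Col6a1 differed by -1.0 ± 0.21 (adjusted p = 0.0252, limma). The third listed chain, Col6a3, had 3146, 4604 and 6159 in CORT, against 11384, 10805 and 13058 in vehicle and missed the threshold (adjusted p = 0.0563, limma). Col15a1, a basement membrane collagen, had 1260.5, 1358 and 1653 in CORT, against 2722, 2752 and 3715 in vehicle, with a difference of -1.10 ± 0.22 on the log2 scale (SE, n = 3 each; limma, adjusted p = 0.0158). In each of these genes CORT replicate 3 had the highest CORT value and still lay below the vehicle range.

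Fbn1, the backbone of elastic microfibrils, had 2542, 1845 and 3559 in CORT, against 5936, 6410.5 and 7598 in vehicle. CORT replicate 2 was lowest and the groups did not overlap, with a difference of -1.37 ± 0.31 on the log2 scale (SE, n = 3 each; limma, adjusted p = 0.0319). Sparc, a collagen-binding glycoprotein, had 12742, 12872 and 19623 in CORT, against 21230.1, 29389 and 33921 in vehicle. CORT replicate 3 came close to vehicle replicate 1 there, and the difference was -0.91 ± 0.21 on the log2 scale (SE, n = 3 each; limma, adjusted p = 0.045). The remaining called members were Col5a2, Col5a3 and Bgn, a small proteoglycan of collagen fibrils, with differences of -1.10, -1.10 and -0.86 and adjusted p of 0.0344, 0.0455 and 0.045 (limma).

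Members that missed the threshold ranged widely. Eln, which encodes elastin, had 1075, 740.5 and 915 in CORT, against 3256, 4514 and 4265 in vehicle. All 3 CORT libraries held far less than any vehicle library, and the difference of -2.14 ± 0.63 was the largest of the list but not called (adjusted p = 0.0921, limma). Lox, the enzyme that cross-links collagen and elastin, had 538, 618 and 823 in CORT, against 1420.3, 1833 and 2061 in vehicle, also without overlap and also not called (adjusted p = 0.0635, limma). At the other end, Dcn, a proteoglycan abundant in fibrous tissue, had 23026, 24042 and 23026 in CORT, against 19623, 26872 and 29389 in vehicle, and Col18a1, another basement membrane collagen, had 2047, 2166 and 1925 in CORT, against 2275, 2148 and 2258 in vehicle. Both overlapped between groups, with differences of -0.09 and -0.12.

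Genes of the endothelium, the inner lining of blood vessels, formed the list in which every member separated the groups. All 10 had lower values in each CORT library than in any vehicle library, against 11.1% of all features. Of the 10, 2 fell, against 0.642% of all features. That count was 4 without CORT replicate 3, and 1 without vehicle replicate 1 or with each treatment on its own scale. The median was -0.74, -0.78 without both replicate 2 libraries at 8 h and -0.32 at the other 5 times. Vwf, the adhesive protein that endothelium releases for platelets, had 562, 643 and 899.5 in CORT, against 1399, 1591 and 1522 in vehicle. CORT replicate 1 was lowest and the difference was -1.13 ± 0.19 on the log2 scale (SE, n = 3 each; limma, adjusted p = 0.00631). Pecam1, an adhesion protein of endothelial junctions, had 509, 695 and 788 in CORT, against 1036, 1099 and 1082 in vehicle and a difference of -0.71 ± 0.16 on the log2 scale (SE, n = 3 each; limma, adjusted p = 0.0329). Cdh5, the endothelial cadherin, had 260, 331 and 412 in CORT, against 673, 615 and 668 in vehicle, which narrowly missed the threshold (adjusted p = 0.0503, limma). Tie1 and Tek, receptors of the angiopoietin system, had adjusted p of 0.0543 and 0.0543. The 10 genes summed to 2909 to 4086 in CORT and 5918 to 6282 in vehicle. Whether the matrix, endothelial and mitotic differences reflect cell numbers was not tested.

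Mitotic genes are transcribed late in the cell cycle and mark dividing cells. Of 12 listed, 5 fell, against 0.642% of all features. All 12 were lower in CORT by their means, as were 42.9% of all features. In 10 all CORT values lay below all vehicle values, as in 11.1% of all features. Their median difference was -1.34, the lowest of all lists, and -1.11 without both replicate 2 libraries at 8 h. It was -0.72 at the other 5 times. Top2a, the topoisomerase that untangles sister chromosomes, had 134, 98.3 and 221 in CORT, against 331, 523 and 554 in vehicle. CORT replicate 3 was highest among the CORT libraries and vehicle replicate 1 lowest among the vehicle libraries, without overlap. The difference was -1.67 ± 0.35 on the log2 scale (SE, n = 3 each; limma, adjusted p = 0.0226). Mki67, the gene of the proliferation marker Ki-67, had 274, 117 and 351 in CORT, against 551, 745 and 864 in vehicle and a difference of -1.65 ± 0.40 on the log2 scale (SE, n = 3 each; limma, adjusted p = 0.0469). Cdk1, the kinase that starts mitosis, had 24.5, 29.5 and 22.1 in CORT, against 52, 70.0 and 74.7 in vehicle, and its difference was -1.33 ± 0.31 on the log2 scale (SE, n = 3 each; limma, adjusted p = 0.041). Ccna2 (cyclin A2) and Kif11 (a motor of the spindle) differed by -1.23 and -1.48, with adjusted p of 0.0374 and 0.0374 (limma). Birc5 and Cdc20 overlapped between the groups. Genes of DNA replication, which act earlier in the cycle, had none of 10 called and a median of -0.14.

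Among the 12 named features with the largest falls, 7 also belong to mitosis. These 7 are not in the list and were selected by their fall in these same data, so the count is no test. Prc1, which bundles microtubules of the central spindle, had 26.1, 10.3 and 28.9 in CORT, against 70.7, 132 and 116 in vehicle. It had the largest fall of the 12, -2.31 ± 0.36 on the log2 scale (SE, n = 3 each; limma, adjusted p = 0.00445), or 0.202 times vehicle. CORT replicate 2 held the lowest value, and without both replicate 2 libraries the difference was -1.69. Pbk, a mitotic kinase, differed by -2.11 ± 0.41, Ube2c, which marks mitotic proteins for destruction, by -2.0 ± 0.46, and Kifc1, a spindle motor, by -1.97 ± 0.40. Kntc1, a kinetochore protein, Kif2c, which shortens microtubules, and Tpx2, a spindle assembly factor, differed by -1.96 ± 0.43, -1.68 ± 0.37 and -1.67 ± 0.34. Adjusted p of these 7 were between 0.00445 and 0.0389 (limma). Foxm1, a transcription factor of late cell cycle genes, had 33.4, 21.8 and 43.3 in CORT, against 66.4, 80.5 and 102 in vehicle and fell by a difference of -1.34 ± 0.23 on the log2 scale (SE, n = 3 each; limma, adjusted p = 0.00631).

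Promoters of late cell cycle genes often carry the cell cycle genes homology region, whose letters are TTTGAA or TTCGAA. The promoters of 3 called genes are shown because these members moved together. They are RefSeq sequences of GRCm38.p6 (the same assembly as mm10), 250 bases before to 50 after the gene start, with each match on either strand in capitals (TTCAAA is TTTGAA read on the other strand). They lie on the minus strand at chr7:135716330-135716629 for Mki67, chr11:99024140-99024439 for Top2a and chr10:69352863-69353162 for Cdk1.
Mki67: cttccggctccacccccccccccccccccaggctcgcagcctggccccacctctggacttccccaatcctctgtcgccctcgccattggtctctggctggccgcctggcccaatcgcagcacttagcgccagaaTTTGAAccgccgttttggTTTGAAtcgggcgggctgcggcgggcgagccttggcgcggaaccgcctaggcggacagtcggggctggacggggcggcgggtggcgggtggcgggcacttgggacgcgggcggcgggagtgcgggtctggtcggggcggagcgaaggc
Top2a: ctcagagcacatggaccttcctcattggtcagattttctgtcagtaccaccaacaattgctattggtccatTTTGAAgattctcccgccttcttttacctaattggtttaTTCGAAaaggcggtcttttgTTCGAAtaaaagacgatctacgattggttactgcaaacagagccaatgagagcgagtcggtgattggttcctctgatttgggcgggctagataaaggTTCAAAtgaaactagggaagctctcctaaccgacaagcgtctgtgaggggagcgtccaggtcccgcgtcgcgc
Cdk1: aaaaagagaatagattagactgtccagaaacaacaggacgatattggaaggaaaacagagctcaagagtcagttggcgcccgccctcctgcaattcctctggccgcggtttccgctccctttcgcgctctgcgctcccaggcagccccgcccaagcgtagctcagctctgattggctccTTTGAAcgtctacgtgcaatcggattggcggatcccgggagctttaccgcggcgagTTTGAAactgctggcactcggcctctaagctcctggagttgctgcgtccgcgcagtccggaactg
The matches begin at positions -116 and -98 of Mki67, at -179, -140, -120 and -23 of Top2a and at -71 and -15 of Cdk1, counted from the gene start. Of the 5 called mitotic genes 4 had a promoter in the RefSeq table (Mki67, Top2a, Cdk1 and Kif11), and all 4 held a match, as did 8 of the 10 listed genes with a promoter. A match was also found in 19.4% of all 27025 promoters of the same length. Such a match describes the letters and shows no binding.

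Interferon-responsive genes are switched on by interferons and sensors of nucleic acids and encode antiviral proteins. Of 15 listed, 3 fell, against 0.642% of all features. By their means 14 were lower in CORT, as were 42.9% of all features. In 8 all CORT values lay below all vehicle values, as in 11.1% of all features. The median was -0.89, with -0.78 without both replicate 2 libraries at 8 h and -0.16 at the other 5 times. Zbp1, a sensor of nucleic acids, had 14.8, 9.31 and 16.9 in CORT, against 31.6, 44.9 and 56.9 in vehicle, and CORT replicate 2 was lowest. Its difference was -1.63 ± 0.38 on the log2 scale (SE, n = 3 each; limma, adjusted p = 0.0389). Oas1a, an antiviral synthetase of oligoadenylates, had 11.5, 8.82 and 10.4 in CORT, against 24.4, 37 and 35.6 in vehicle and a difference of -1.55 ± 0.37 on the log2 scale (SE, n = 3 each; limma, adjusted p = 0.0467). Bst2, which tethers budding viruses to the cell, had 86.2, 76.9 and 57.5 in CORT, against 99.4, 142 and 133 in vehicle, and the lowest vehicle library was not far above the highest CORT library. The difference was -0.76 ± 0.19 on the log2 scale (SE, n = 3 each; limma, adjusted p = 0.0497). Vehicle replicate 1 had the lowest vehicle value in these genes, and without it 7 of the 15 were called, while 1 was called without CORT replicate 3. Isg15, a ubiquitin-like modifier, had 16.6, 7.4 and 0 in CORT, against 9.14, 34.1 and 40.6 in vehicle, so vehicle replicate 1 lay within the CORT range (adjusted p = 0.118, limma). Usp18, which removes that modifier, was the member with a higher mean in CORT, with 173, 179 and 127 in CORT, against 119, 161 and 167 in vehicle and overlapping groups.

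The interferon-stimulated response element, searched by its core of GAAA, any NN and GAAA again, is bound by the factors that interferons activate. Of the 3 called genes 2 had a promoter in the table, shown here with matches in capitals, 2 of which overlap in each run. Both lie on the minus strand of GRCm38.p6, at chr5:120907476-120907775 for Oas1a and at chr8:71537423-71537722 for Bst2.
Oas1a: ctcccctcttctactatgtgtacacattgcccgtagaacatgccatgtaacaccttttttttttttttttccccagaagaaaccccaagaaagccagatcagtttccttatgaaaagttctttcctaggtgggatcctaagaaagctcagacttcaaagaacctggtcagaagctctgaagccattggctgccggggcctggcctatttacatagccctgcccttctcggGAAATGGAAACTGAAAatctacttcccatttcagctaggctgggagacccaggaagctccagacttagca
Bst2: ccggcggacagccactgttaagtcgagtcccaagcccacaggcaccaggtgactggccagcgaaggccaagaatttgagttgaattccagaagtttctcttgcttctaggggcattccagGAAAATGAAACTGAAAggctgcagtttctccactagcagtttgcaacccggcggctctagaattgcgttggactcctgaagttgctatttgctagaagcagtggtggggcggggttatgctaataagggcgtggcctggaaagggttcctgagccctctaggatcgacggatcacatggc
The matches begin at -20 in Oas1a and at -130 in Bst2. Among the 10 listed genes with a promoter 6 held a match on either strand, and 3.49% of all promoters did. No binding was measured here.

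Other immune genes mostly missed the threshold. Adgre1, the F4/80 marker of macrophages, had 323, 342 and 276 in CORT, against 366, 548 and 522 in vehicle and fell by a difference of -0.59 ± 0.14 on the log2 scale (SE, n = 3 each; limma, adjusted p = 0.0477), while CORT replicate 2 and vehicle replicate 1 lay close together. It was the only member called of 10 macrophage genes, against 0.642% of all features called lower. The list median was -0.28, or -0.47 without vehicle replicate 1. With each treatment on its own scale Adgre1 was not called. Cx3cr1, a chemokine receptor of tissue macrophages, had 58.8, 44.2 and 90.7 in CORT, against 106, 144 and 159 in vehicle without overlap (adjusted p = 0.0557, limma). The macrophage genes together summed to 7999 to 8534 in CORT and 7737 to 11358 in vehicle. None of 7 genes of antigen presentation on MHC class II was called, with a median of -0.38. None of 14 measured cytokine and chemokine genes was called either, although all 14 had lower means in CORT, as did 42.9% of all features. Il1b, an inflammatory cytokine, had 0.972, 1.18 and 2.83 in CORT, against 2.25, 22.4 and 17.2 in vehicle, with vehicle replicate 1 inside the CORT range.

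Of 10 genes of the TGF-beta pathway, which drives fibroblasts to make matrix, 9 had lower means in CORT and in 6 all CORT values lay below all vehicle values, against 42.9% and 11.1% of all features. Of the 10, 1 fell, against 0.642% of all features. The list median was -0.42, against -0.13 at the other 5 times. Ctgf, a secreted matrix protein and target of TGF-beta, had 661, 442 and 259 in CORT, against 1806, 1567 and 1395 in vehicle. The groups were far apart, but the spread of this gene over the series was wide and it was not called (adjusted p = 0.241, limma).

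The named falls also held Pgr, the progesterone receptor, a steroid receptor related to that of glucocorticoids. Pgr lies on chromosome 9 from 8899833 to 8968611 and had 15.6, 30.1 and 47.5 in CORT, against 118, 111 and 152 in vehicle. Every CORT library was far below the vehicle range, and the difference was -2.12 ± 0.49 on the log2 scale (SE, n = 3 each; limma, adjusted p = 0.0385). Col11a1, a fibrillar collagen known from cartilage, had 164, 164 and 316 in CORT, against 675, 682 and 844 in vehicle and a difference of -1.83 ± 0.34 on the log2 scale (SE, n = 3 each; limma, adjusted p = 0.0116). Ifi206, of an interferon-inducible family, and Scml4 differed by -1.82 ± 0.44 and -1.70 ± 0.36, with adjusted p of 0.0497 and 0.0238 (limma). Without both replicate 2 libraries at 8 h, Pgr and Col11a1 differed by -2.25 and -1.73.

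**Figure D2:**
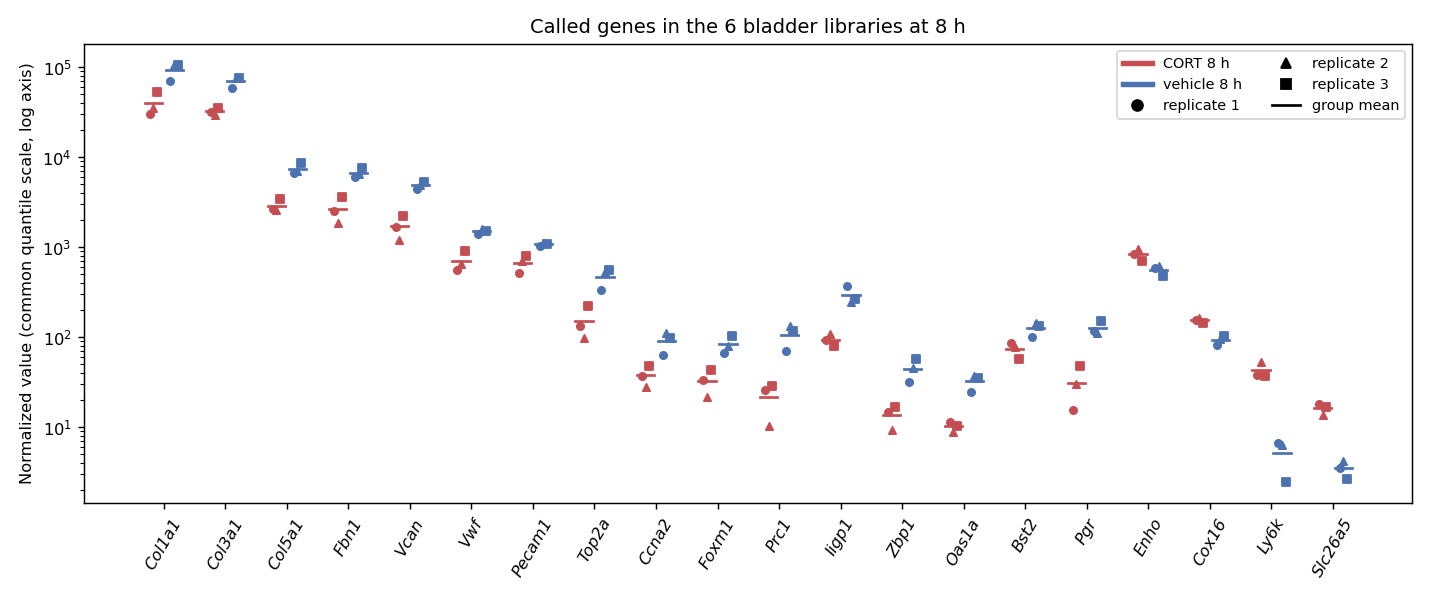
Normalized values (log axis) of 20 called genes in the 3 CORT libraries (red, left of each pair) and the 3 vehicle libraries (blue) at 8 h. Circles, triangles and squares are replicates 1, 2 and 3 and lines are group means. From Col1a1 to Pgr the CORT points lie below the vehicle points, and from Enho to Slc26a5 above them.

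The 22 features that rose were mostly of low or moderate value and none belonged to a list. Ly6k, a lipid-anchored surface protein of the Ly6 family, had 37.7, 53.1 and 37 in CORT, against 6.61, 6.29 and 2.44 in vehicle. Each CORT library held several times more than any vehicle library, and the difference was 2.90 ± 0.69 on the log2 scale (SE, n = 3 each; limma, adjusted p = 0.0435). Slc26a5, which encodes prestin, the motor protein of cochlear outer hair cells, had 18.3, 13.8 and 16.7 in CORT, against 3.56, 4.26 and 2.67 in vehicle and a difference of 1.95 ± 0.41 on the log2 scale (SE, n = 3 each; limma, adjusted p = 0.0238). Its vehicle values correspond to a handful of reads. Cwh43 had 22.8, 13.3 and 13.8 in CORT, against 5.1, 6.92 and 3.61 in vehicle and differed by 1.5 ± 0.34 (adjusted p = 0.0319, limma).

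At moderate levels, Brdt, a bromodomain protein known from testis, had 42.5, 36.6 and 51.3 in CORT, against 23.7, 18.3 and 23.5 in vehicle. All CORT values lay above the vehicle range, with a difference of 0.96 ± 0.21 on the log2 scale (SE, n = 3 each; limma, adjusted p = 0.0319). Cox16, an assembly factor of cytochrome c oxidase, had 156, 162 and 145 in CORT, against 82.3, 95.6 and 102 in vehicle and a difference of 0.72 ± 0.12 on the log2 scale (SE, n = 3 each; limma, adjusted p = 0.00631). The CORT libraries of Cox16 were close together, and the lowest of them was well above the highest vehicle library. Enho, the gene of the peptide adropin, had 846, 958 and 703 in CORT, against 593, 621 and 475 in vehicle and rose by 0.57 ± 0.13 on the log2 scale (SE, n = 3 each; limma, adjusted p = 0.0319). The rest of the named rises were Hspb11, a part of the transport system of cilia, with 0.77, Zfp119b, a zinc finger gene, with 0.72, and Pigyl, of the pathway that makes lipid anchors, with 0.64. Fam98c, Dusp28, a phosphatase, and Tfap4, a transcription factor, differed by 0.60, 0.60 and 0.57. Adjusted p of these 6 were between 0.0296 and 0.0497 (limma). The sources used here do not say how reads shared between near-identical copies were counted, so genes of large families such as Zfp119b, Pigyl, Ifi206 and Oas1a are uncertain.

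Whether genes that glucocorticoids are known to induce differed at 8 h was a separate question, and none of 25 such targets was called. Their median was -0.08, with 12 higher and 13 lower, against 57.1% higher and 42.9% lower of all features. With libraries weighted by their estimated quality, 1 of the 25 was called lower. Fkbp5, a co-chaperone that feeds back on the receptor, had 629, 681 and 1194 in CORT, against 393, 543 and 614 in vehicle. All CORT values lay above the vehicle values, by a narrow margin in replicate 1, and the difference was 0.65 ± 0.33 on the log2 scale (SE, n = 3 each; limma, adjusted p = 0.344). Tsc22d3, which encodes the anti-inflammatory protein GILZ, had 665, 819 and 989.7 in CORT, against 739.7, 970.3 and 931 in vehicle with overlapping groups and a difference of -0.10. Per1, at once a clock gene and a glucocorticoid target, had 275, 260.2 and 387 in CORT, against 504, 609 and 568 in vehicle, lower in every CORT library, and its difference was -0.88 ± 0.28 on the log2 scale (SE, n = 3 each; limma, adjusted p = 0.126). At 4 h the same gene differed by 2.13, with the sign reversed. Without vehicle replicate 1 the median of the 25 targets at 8 h was -0.22. Their median at 4 h was 1.04, against -0.08 at 8 h.

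The glucocorticoid receptor gene Nr3c1 had 1762, 1966 and 1587 in CORT, against 2263, 2090.2 and 2094 in vehicle, and its difference of -0.28 ± 0.18 on the log2 scale (SE, n = 3 each; limma, adjusted p = 0.46) was not called. Fbxo32, which encodes a muscle ubiquitin ligase known as atrogin-1, had 6332, 8139 and 6776 in CORT, against 4297, 3169 and 3016 in vehicle. All CORT values were well above the vehicle values, yet with the spread of this gene over the series the difference was 1.03 ± 0.43 on the log2 scale (SE, n = 3 each; limma, adjusted p = 0.249). Among 7 genes of anti-inflammatory feedback none was called, and the median was -0.38. All 7 had lower means in CORT, as did 42.9% of all features. Socs3, an inhibitor of cytokine signals, had 66.7, 105 and 199 in CORT, against 117, 303 and 375 in vehicle, and vehicle replicate 1 lay inside the CORT range.

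No clock gene passed the main test at 8 h. With libraries weighted by their estimated quality, 3 of the 10 repressors were called lower, in a fit with 667 lower calls. Without CORT replicate 3, 1 repressor was called lower, in a fit with 232 lower calls. The clock genes varied more among CORT libraries than among vehicle libraries. The median SD over the 19 clock genes was 0.287 on the log2 scale in CORT and 0.152 in vehicle, against 0.203 and 0.175 over all features tested. Nr1d1, which encodes the repressor REV-ERB alpha, had 1009, 485 and 1556 in CORT, against 2122, 1859.9 and 1959.5 in vehicle. The CORT libraries were spread widely, with replicate 2 lowest, and all lay below the vehicle libraries, which were close together. The difference was -1.11 ± 0.34 on the log2 scale (SE, n = 3 each; limma, adjusted p = 0.115), and -0.70 without both replicate 2 libraries. Bhlhe40, a repressor of clock output also known as DEC1, had 429, 309.8 and 426 in CORT, against 709, 815 and 904 in vehicle. Its groups were well apart and its difference of -1.07 ± 0.30 on the log2 scale (SE, n = 3 each; limma, adjusted p = 0.0803) came closest to the threshold among the clock genes. Dbp, an output factor driven by the core clock, had 716, 397 and 833 in CORT, against 1103, 896 and 968 in vehicle, with CORT replicate 2 far below the rest and a difference of -0.67 ± 0.41 on the log2 scale (SE, n = 3 each; limma, adjusted p = 0.449).

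The remaining repressors stood as follows. Cry1 had 189.6, 305 and 193 in CORT, against 159, 153 and 185 in vehicle, with CORT replicate 2 high and the other CORT libraries just above the vehicle range, and differed by 0.44 ± 0.20 on the log2 scale (SE, n = 3 each; limma, adjusted p = 0.306). Ciart had 13.9, 3.19 and 17.2 in CORT, against 23.8, 19.6 and 17.2 in vehicle and overlapped. Per2, Per3, Cry2, Nr1d2 and Bhlhe41 differed by 0.10, 0.14, 0.10, -0.14 and -0.29. The 10 repressors had a median of -0.22, with 6 lower and 4 higher, and of -0.10 without vehicle replicate 1.

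Among the 5 activators, Arntl had 86.1, 188 and 87.3 in CORT, against 83.2, 110.1 and 109 in vehicle, with CORT replicate 2 above all other libraries. Its difference was 0.17, and -0.14 without both replicate 2 libraries, with the sign reversed. The median of the activators was 0.17, and -0.09 without both replicate 2 libraries. Clock, Npas2 and Rora differed by -0.07, 0.26 and -0.04. Of the outputs, Nfil3, a repressor that opposes Dbp, had 49.7, 139.6 and 57.9 in CORT, against 43.1, 82.3 and 84.3 in vehicle, again with CORT replicate 2 highest. Its difference was 0.14, and -0.17 without both replicate 2 libraries. Tef and Hlf, relatives of Dbp, differed by 0.00 and 0.45. None of 6 clock kinases and ubiquitin enzymes was called, and the smallest adjusted p was that of Csnk1e, 0.264 (limma).

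**Figure D3:**
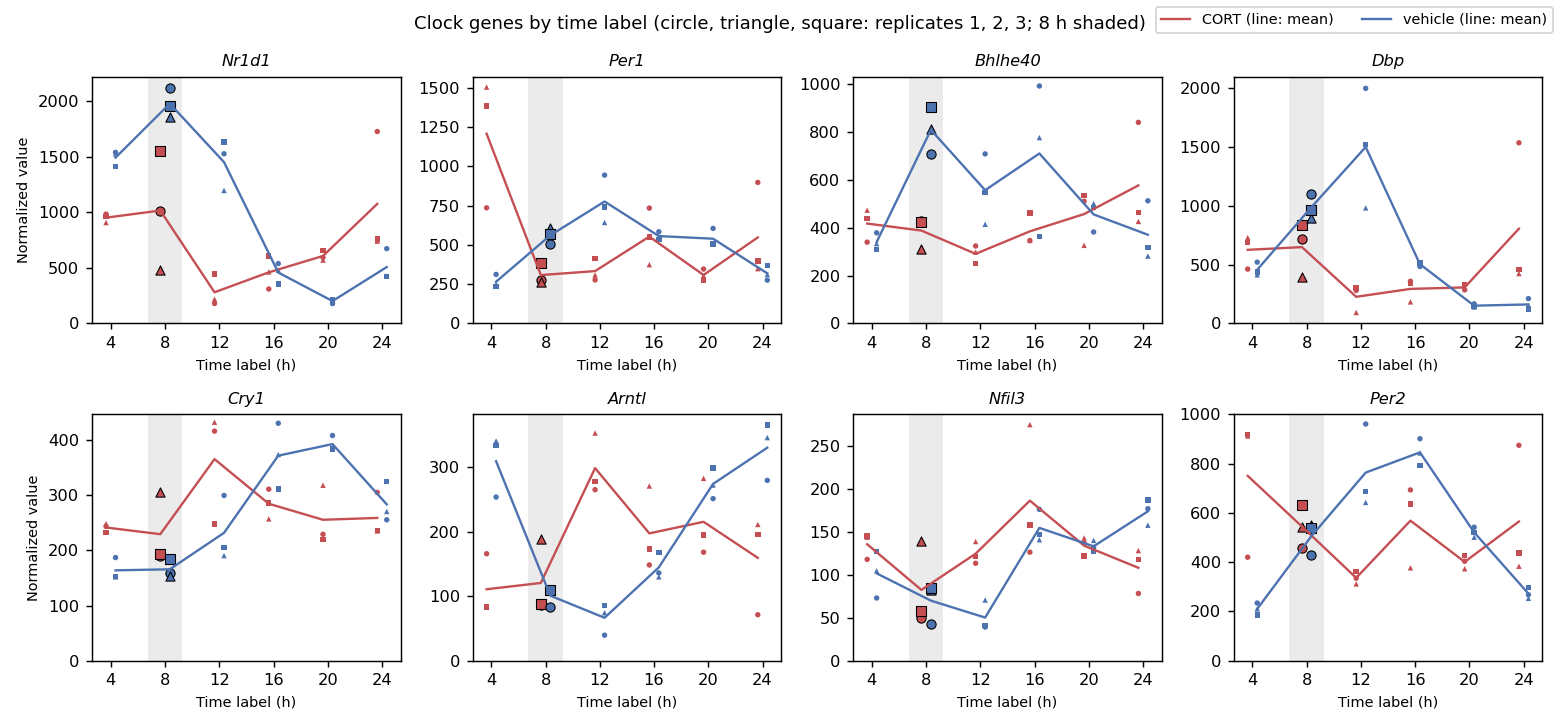
Normalized values of 8 clock genes by time label (h) in CORT (red, left) and vehicle (blue) libraries, with circles, triangles and squares for replicates 1, 2 and 3 and lines through the means. The shaded band marks 8 h, where CORT replicate 2 (large red triangle) had 485 for Nr1d1 and 188 for Arntl, against 1009 and 1556 for Nr1d1 and 86.1 and 87.3 for Arntl in the other CORT libraries.

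The clock state of each library was described by its distance from the vehicle means of each time label over the 19 clock genes, as the root mean square difference on the log2 scale. CORT replicate 1 lay nearest to vehicle 8 h, at 0.509, and CORT replicate 3 likewise, at 0.336. CORT replicate 2 lay nearest to vehicle 20 h, at 0.648, and was 0.999 from vehicle 8 h. The vehicle libraries, each set against means that leave it out, were all nearest to 8 h, at 0.354, 0.220 and 0.204 for replicates 1, 2 and 3. Vehicle replicate 2, which stands as vehicle 20 h among the selected genes, was 1.304 from vehicle 20 h. Against the CORT means, CORT replicate 1 was nearest to 8 h, at 0.397, and CORT replicate 2 to 20 h, at 0.416, while it lay 0.777 from CORT 8 h. CORT replicate 3 was nearest to CORT 24 h, at 0.388, with 0.501 from CORT 8 h, and the 3 vehicle libraries were also nearest to CORT 24 h, at 0.553, 0.438 and 0.413. With replicate 2 left out of all means, CORT replicate 2 was nearest to vehicle 24 h, at 0.6627 against 0.6645 for vehicle 20 h, and to CORT 12 h, at 0.379. The nearest time of CORT replicate 2 thus depended on the libraries in the means, and it was 8 h in none of these settings. With replicate 2 left out, CORT replicate 3 was nearest to CORT 8 h, there CORT replicate 1 alone, at 0.308 against 0.415 for CORT 24 h. Vehicle replicates 1 and 2 were then also nearest to CORT 8 h, at 0.458 and 0.411, and vehicle replicate 3 to CORT 24 h, at 0.419. Distances are descriptions, with no test.

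Urothelium, the stratified lining of the bladder that carries the uroplakin plaques, had no gene called. All 16 listed genes had higher means in CORT, as did 57.1% of all features tested. In 10 of the 16 all CORT values lay above all vehicle values, against 12.8% of all features tested. The median was 0.34, 0.45 without both replicate 2 libraries at 8 h, 0.22 without vehicle replicate 1 and 0.14 at the other 5 times. Upk3a, a uroplakin, had 10905, 9714 and 9919 in CORT, against 6502, 8386 and 7803 in vehicle. Vehicle replicate 1 was lowest, and the difference was 0.43 ± 0.18 on the log2 scale (SE, n = 3 each; limma, adjusted p = 0.25), the smallest p of the list. Cldn4, a tight junction protein, had 3834, 3864 and 3233 in CORT, against 2462, 2787 and 2605 in vehicle and a difference of 0.47 ± 0.21 (adjusted p = 0.27, limma). Krt5, the keratin of basal cells, had 9469.6, 10046 and 10905 in CORT, against 8248, 11899 and 10360.1 in vehicle and overlapped.

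Genes of lipid metabolism gave the same picture of small differences with none called. All 16 genes of cholesterol synthesis had higher means in CORT, as did 57.1% of all features, and in 9 all CORT values lay above all vehicle values, as in 12.8% of all features. The median was 0.24. Insig1, which holds back the sterol-sensing system, had 991, 874 and 878 in CORT, against 709.6, 629 and 693 in vehicle and a difference of 0.43 ± 0.16 on the log2 scale (SE, n = 3 each; limma, adjusted p = 0.172). Of 12 genes of fatty acid oxidation 11 had higher means, 8 of them without overlap against the same 12.8%, with a median of 0.20. Acot2, a mitochondrial thioesterase, had 279, 257 and 247 in CORT, against 176, 211 and 208 in vehicle and differed by 0.40 ± 0.15 on the log2 scale (SE, n = 3 each; limma, adjusted p = 0.199). At the other 5 times the medians of these lists were 0.03 and 0.07.

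**Figure D4:**
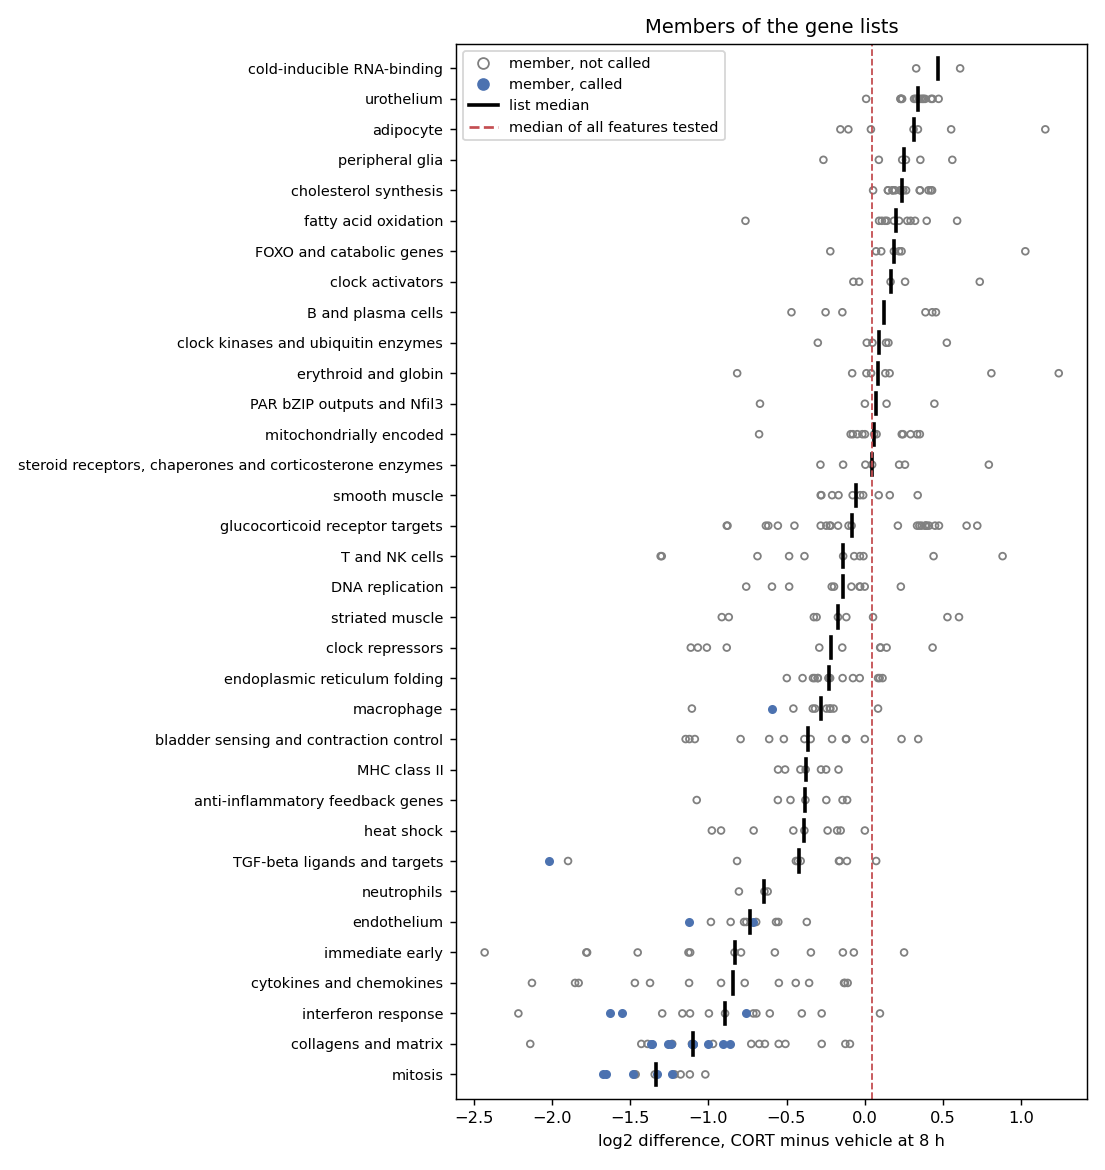
Difference between CORT and vehicle at 8 h (log2, horizontal axis) for each tested member of the gene lists, which are sorted by their median (black bar) from highest to lowest. Filled blue points are the called members, all lower in CORT, and the dashed line is the median of all features, 0.05. Mitotic, matrix and interferon genes stand at the bottom, and urothelial genes near the top.

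Genes that sense filling and control contraction are the link to micturition, and none of 14 was called. With libraries weighted by their estimated quality, 3 were called lower. The median of the 14 was -0.37, and -0.23 without vehicle replicate 1. By their means 11 were lower and 3 higher, against 42.9% and 57.1% of all features. Piezo1, a stretch-activated channel, had 712, 812 and 979.6 in CORT, against 1045, 1247 and 1276 in vehicle. Each CORT library was below the vehicle range, and the difference was -0.52 ± 0.16 on the log2 scale (SE, n = 3 each; limma, adjusted p = 0.116). Gja1, which encodes the gap junction protein connexin 43 and is tied to bladder capacity in mice, had 597, 547 and 708 in CORT, against 815, 917 and 1104 in vehicle and a difference of -0.61 ± 0.22 on the log2 scale (SE, n = 3 each; limma, adjusted p = 0.172). Slc17a9, which loads ATP into vesicles, had 6.37, 3.89 and 6.92 in CORT, against 14, 13.7 and 13 in vehicle, low values with a difference of -1.15 ± 0.35 on the log2 scale (SE, n = 3 each; limma, adjusted p = 0.114). Piezo2 differed by -0.39 ± 0.16 (adjusted p = 0.244, limma). Adrb3, the beta-3 adrenergic receptor that relaxes the detrusor, had 72.5, 41.6 and 30.7 in CORT, against 98.1, 36.4 and 25.8 in vehicle, with the largest value in replicate 1 of each treatment and a difference of 0.00.

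Smooth muscle genes, the contractile set of the detrusor, had no member called and no member without overlap. The median was -0.05, and 0.13 without vehicle replicate 1, with the sign reversed. Des, which encodes the filament protein desmin, had 57882, 49720.1 and 40272 in CORT, against 40272, 38523 and 36852 in vehicle, and Myocd, a coactivator of muscle genes, had 1589, 1841 and 2075 in CORT, against 3080.1, 1770.5 and 1981 in vehicle. Vehicle replicate 1 was highest for Myocd and had the highest total of the list, 411930.1, against 303752.5 and 298504.8 in the other vehicle libraries. Striated muscle genes summed to 2626 to 2915 in CORT and 2774 to 4097 in vehicle.

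Immediate early genes, which respond within minutes to stimulation, stress or handling of tissue, differed widely between libraries of the same treatment. Of 13 listed, none was called, and the median was -0.83. Lower means in CORT were seen in 12, against 42.9% of all features. Fos, a subunit of the AP-1 factor, had 217, 333 and 1376 in CORT, against 176, 1793 and 1781 in vehicle. CORT replicate 3 and vehicle replicates 2 and 3 were high, and CORT replicates 1 and 2 and vehicle replicate 1 low, so the groups overlapped. Egr1, another early transcription factor, had 177, 244 and 1174 in CORT, against 130.3, 1819 and 2235 in vehicle in the same order. The summed values of the list were 4448.2, 5232.0 and 7983.0 in CORT, against 3651.9, 10911.0 and 11651.2 in vehicle. Without both replicate 2 libraries the median was -0.39, and without vehicle replicate 1 it was -1.79. In the fit without vehicle replicate 1, 1 of the 13 was called lower.

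Heat shock genes, which encode chaperones, had none of 9 called and a median of -0.39. Hspa1b, an inducible HSP70, had 444, 759.5 and 872 in CORT, against 634, 2164 and 1641 in vehicle, again with vehicle replicate 1 inside the CORT range, and a difference of -0.98 ± 0.31 on the log2 scale (SE, n = 3 each; limma, adjusted p = 0.117). Without vehicle replicate 1 there were 4 called. Cirbp, a cold-inducible RNA-binding protein, had 968, 622 and 539 in CORT, against 656, 366 and 378 in vehicle and a difference of 0.61 ± 0.19 on the log2 scale (SE, n = 3 each; limma, adjusted p = 0.113). Of the 2 listed cold-inducible genes, 1 was called higher without vehicle replicate 1, and 1 without CORT replicate 3. Whether tissue handling had a part in the differences of immediate early, heat shock and cold-inducible genes was not tested. Genes of protein folding in the endoplasmic reticulum, which also serves collagen export, had none of 15 called and a median of -0.23, or -0.14 without both replicate 2 libraries.

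**Figure D5:**
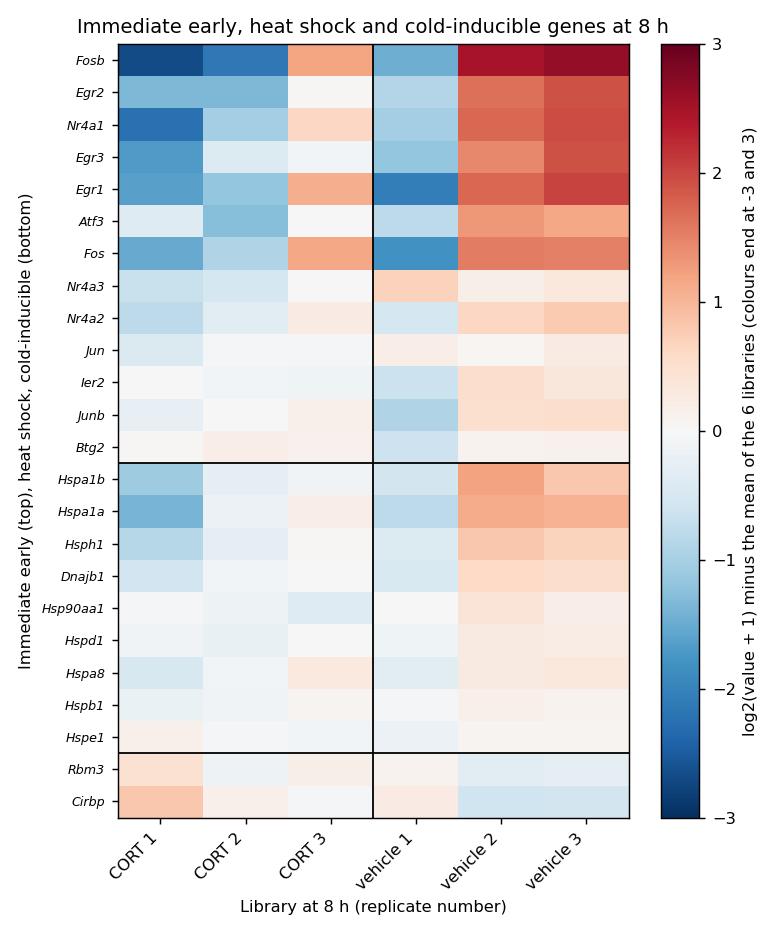
Levels of 13 immediate early, 9 heat shock and 2 cold-inducible genes in the 6 libraries at 8 h, as log2(value + 1) minus the mean of the 6 libraries (red high, blue low). CORT libraries are left of the vertical line and vehicle libraries right of it. For genes such as Fos and Egr1 vehicle replicates 2 and 3 are high, and CORT replicates 1 and 2 and vehicle replicate 1 are low.

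Whether the difference at 8 h differs from that at the other 5 times was tested with a contrast in the same fit. No feature passed (0 of 17744, limma), with 1050 (5.92%) at an unadjusted p under 0.05. Weighting libraries by their estimated quality gave 1 higher and 3 lower. Of the 136 features called at 8 h, 128 had the same sign in the mean of the other 5 times and all 136 had a smaller absolute difference there. Since the 136 were selected at 8 h, the smaller values elsewhere are no test.

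Features with small p in that contrast are given as values, as log2 with SE. C1qtnf6, a secreted protein related to complement C1q, had 83.1, 90.6 and 95.9 in CORT, against 221, 226.3 and 243 in vehicle at 8 h, and its contrast was -1.08 ± 0.22 (adjusted p = 0.16, limma). Pgr had a mean difference of 0.25 at the other times and a contrast of -2.37 ± 0.53 (adjusted p = 0.27, limma).

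Foxm1 and Brdt had contrasts of -1.14 ± 0.25 and 1.07 ± 0.23, and Clec11a, a secreted growth factor of bone, of -0.84 ± 0.18. Adjusted p was 0.221 in each (limma). The interferon-inducible GTPases Iigp1 and Gbp9 had contrasts of -1.37 ± 0.32 and -0.89 ± 0.21. Iigp1 had 93, 109 and 80.2 in CORT, against 369, 246 and 267 in vehicle at 8 h and vehicle replicate 1 was the highest. Oas1a, Slc26a5 and Cox16 had contrasts of -1.71 ± 0.41, 1.90 ± 0.45 and 0.55 ± 0.13. Adjusted p of these 5 was between 0.343 and 0.397 (limma).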

How the data were processed

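For each treatment the authors deposited full tables of 49585 features in 12 libraries, those of 2 replicate numbers, as a linear, non-negative signal. Sorted, the libraries of a table are identical and their values are multiples of 1/12, so this signal is a gene-level read count after quantile normalization over 12 libraries. Their tables of selected genes, deposited as log2 of the signal plus 1, served only to compare names. Per the submitters' processing notes the genome build was mm10, and the sources used here name no aligner or counter. The columns used were matched to samples by name, and 48 columns of further tables of 2 replicates were not used.

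The sorted sets of the 6 full tables were averaged, and each library's ranks received the averaged values, which gives both treatments 1 scale. Values were tested as log2(value + 1) with limma 3.58.1 (R 4.3.3) over all 36 libraries in 12 group means, so that the 12 groups share 1 estimate of the spread. Features at the lowest value in over 50% of the libraries were left out, and p-values were adjusted (Benjamini-Hochberg) over all 17744 tested, with a threshold of 0.05. Log2 differences of value + 1 understate those of low genes. The depth of a single library cannot be read from quantile normalized values. Steps were tested on simulated data. The genes named are, in each test, up to 12 per direction with the largest difference among called features without overlap and with a mean of at least 10, or those with the smallest p, plus all clock genes and up to 4 members of each list. The members and lists were chosen with earlier results of these data known, and further list members were named after their values were seen. Some genes that the rule names are not reported here. Coordinates are from GENCODE M21 and promoters from RefSeq, both of GRCm38. Pseudocount, filters, replicate block, trend, weights, scale and left-out libraries were varied.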

Additional observations from a re-analysis of the deposited data

How the results depend on the processing

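Against 136 calls of which 22 were higher (limma), a pseudocount of 5 gave 212 calls with 33 higher, a mean value of at least 10 gave 267 with 52, an intensity trend 224 with 37, estimated library weights 949 with 282, each treatment on its own scale 133 with 54, and no filter 112 with 20. The 6 libraries at 8 h alone gave 4 calls with 0 higher (2717 at an unadjusted p under 0.05). Without the 8 libraries of replicate 2 whose names differ between tables there were 0 calls (1649), and without replicate 2 at 8 h in both treatments, an alternative chosen after seeing the data, also 0 (2012). Leaving out 1 replicate number at all times gave 1 to 70 calls with 0 to 11 higher, and leaving out 1 library at 8 h gave 5 to 285 calls with 1 to 53 higher. In these fits an arm of 2 libraries is assumed to vary like the other groups. The cause of the changes was not tested, beyond the smaller number of samples. Of the 136 called features, 99 stayed called on each treatment's own scale, 102 with no filter, 135 with a pseudocount of 5, and all 136 with library weights. Only 2 stayed called with the 6 libraries at 8 h alone, 0 to 32 without 1 replicate number, and 5 to 117 without 1 library at 8 h. None of the 136 changed sign, which their lack of overlap fixes for fits with libraries left out. Of the 328 listed genes that were tested and not called, 96 changed sign under at least 1 alternative, Arntl and Nfil3 among them. Some lists with no call in the main fit had calls under library weights. Among them were 3 clock repressors, 3 cytokine and chemokine genes, 2 genes of MHC class II and 1 of anti-inflammatory feedback, all lower.

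The contrast of 8 h against the other 5 times, with 0 calls (1050 at an unadjusted p under 0.05), gave 4 calls with 1 higher under library weights, 1 call with 0 higher without the 8 doubtfully named libraries, and 0 to 1 calls with 0 to 1 higher without 1 replicate number. The other alternatives gave 0. Over the clock genes, vehicle replicate 3 lay 0.356 from the vehicle 8 h mean when replicate 2 was left out of the means, against 0.204.

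A replicate block gave 261 calls with 64 higher, all 136 still among them, and 0 for the 6 libraries alone with a block (2644 at an unadjusted p under 0.05). Deviations of same-numbered CORT and vehicle libraries at 8 h correlated at 0.0288 to 0.0659, under 0.1, so the numbers were not taken to pair the samples. At the other times such libraries correlated at -0.101 (16 h, replicate 3) to 0.259 (12 h, replicate 1), some above 0.1. CORT replicate 3 and vehicle replicate 2 at 12 h, of different number, reached 0.247. Each of the 6 libraries at 8 h correlated best with its own number, a hint from the data and not from the design. Precision is limited at low values, which correspond to few reads.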

Other observations

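Of the 136 called features 113 lay outside the lists, and those named here were chosen after their values were seen, so they carry no test of their own as groups. Genes that build or trim matrix fell beyond the listed collagens. Vcan, a large proteoglycan of loose matrix, had 1685, 1188 and 2208 in CORT, against 4362, 4928 and 5328 in vehicle. CORT replicate 2 was lowest and the groups were far apart, with a difference of -1.56 ± 0.30 on the log2 scale (SE, n = 3 each; limma, adjusted p = 0.0116). Col16a1 had 1263, 949 and 1143 in CORT, against 2245, 2311 and 2559 in vehicle and a difference of -1.09 ± 0.25. Adamts2 and Bmp1, proteases that trim procollagen ends, had 1163, 1106 and 1476 in CORT, against 2002, 2327 and 2846 in vehicle for Adamts2, and 436, 495 and 502 in CORT, against 786, 852 and 948 in vehicle for Bmp1. Both fell, by differences of -0.93 ± 0.19 and -0.85 ± 0.14. Enzymes of glycosaminoglycan chains fell as well: Xylt1, which starts the chains, differed by -0.94 ± 0.19, Chpf, which extends chondroitin, by -0.82 ± 0.20, and Chst11, which sulfates it, by -1.01 ± 0.24. Emilin1 and Mfap4, both of elastic fibres, differed by -0.98 ± 0.21 and -1.0 ± 0.24. Adjusted p of these 9 genes were between 0.00631 and 0.0475 (limma).

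Vessel genes outside the list also fell. Ptprb, an endothelial phosphatase, had 684, 945 and 1152 in CORT, against 1732, 2051 and 2057 in vehicle and a difference of -1.10 ± 0.23 on the log2 scale (SE, n = 3 each; limma, adjusted p = 0.0238). Mmrn2, a matrix protein of endothelium, had 187, 209 and 221 in CORT, against 409, 465 and 439 in vehicle, with tight values in both groups and a difference of -1.09 ± 0.20 on the log2 scale (SE, n = 3 each; limma, adjusted p = 0.00972). Eng (endoglin) and Cd93 differed by -0.92 ± 0.19 and -0.99 ± 0.18.

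Among interferon-inducible genes outside the list, Rtp4 had 44.1, 45.9 and 36.2 in CORT, against 78.3, 136 and 136 in vehicle and a difference of -1.41 ± 0.30 on the log2 scale (SE, n = 3 each; limma, adjusted p = 0.0232). Ifitm3, which restricts viral entry, had 795, 763 and 903 in CORT, against 1274, 1335 and 1345 in vehicle and a difference of -0.69 ± 0.12 on the log2 scale (SE, n = 3 each; limma, adjusted p = 0.0101). Irgm2, a GTPase, had 182, 273 and 208 in CORT, against 408, 373 and 398 in vehicle, with no vehicle library below 373, and a difference of -0.85 ± 0.17. Ifnar1, a chain of the interferon receptor itself, had 579.6, 654 and 677 in CORT, against 767, 864 and 887 in vehicle and a smaller difference of -0.40 ± 0.08 (adjusted p = 0.0155, limma). In these 4 genes each CORT library lay below each vehicle library, vehicle replicate 1 included, as in 11.1% of all features tested. The groups overlapped in none of the 136 called features, so this separation came with the selection and is no test.

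Klra2, a receptor gene of the Klra family, was listed at 0 in all 3 CORT libraries and at 7.94, 7.37 and 4.57 in vehicle. These low values rest on a few reads, and no fold is given.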
